A study of Mus musculus with 6 samples.

Results

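The 36 genes described here encode aminoacyl-tRNA synthetases, 20 of them cytosolic and 16 mitochondrial, out of 21938 protein-coding genes of the mouse annotation. The members were taken from a list by name. A gene whose name ends in 2 was counted as mitochondrial, and Kars and Gars were counted as cytosolic although each encodes the enzyme for both compartments. For each gene, the peaks of H3K4me3 and of the methyltransferase subunit ASH2L were taken that overlap the window from 1000 bp upstream to 100 bp downstream of any GENCODE vM21 transcript start on the mm10 genome.

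The data came from CUT&RUN, in which an antibody directs a nuclease to cut out the DNA around a bound protein or mark, in E14 mouse embryonic stem cells kept in serum and LIF. The HA-ASH2L line carries a doxycycline-inducible, HA-tagged Ash2L transgene inserted with a piggyBac vector, was grown from a picked colony, and was profiled with an HA antibody and with an H3K4me3 antibody. The parental E14 line, without the transgene, was profiled with the HA antibody. All 6 samples, 2 for each of these 3 groups, had received doxycycline for 48 h. The tagged protein was expressed from a transgene, so the ASH2L peaks describe the induced protein in cells from a single colony. Only the peak lists of the HA-ASH2L line were analysed, 1 per antibody, so that each gene has 1 value per list and no spread between duplicates.

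Aminoacyl-tRNA synthetases attach each amino acid to its tRNA and so set the accuracy of translation. Most amino acids are served by separate nuclear genes for the cytosolic and the mitochondrial enzyme, and several cytosolic synthetases are held together in a multi-synthetase complex. When amino acids run short, the transcription factor ATF4, paired with C/EBP proteins, is known to act on promoters of cytosolic synthetase genes. H3K4me3 marks active and poised promoters, and ASH2L is a shared core subunit of the MLL/SET1 enzymes that write it.

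The promoter sequences came from the RefSeq promoter table on GRCm38.p6, which spans 250 bases before to 50 bases after a gene's RefSeq start and held 27 of the 36 members, 13 cytosolic and 14 mitochondrial. The letters of the C/EBP-ATF composite, TGATGNAA on either strand, stood in the promoters of 5 of 13 cytosolic members (Aars, Gars, Iars, Tars and Yars), in 0 of 14 mitochondrial members and in 3.48% of 16505 coding promoters. The stretches below show a match in each of the 5 genes, and the difference between cytosolic and mitochondrial members was not tested. The capitals mark the motif or its reverse complement, which is TTNCATCA, and each line reads 5′ to 3′ on the strand of the gene.
Aars, chr8:111033840-111033869, plus strand: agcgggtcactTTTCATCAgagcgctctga
Gars, chr6:55037960-55037989, plus strand: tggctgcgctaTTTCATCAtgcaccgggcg
Iars, chr13:49682126-49682155, plus strand: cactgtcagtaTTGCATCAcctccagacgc
Tars, chr15:11399655-11399684, minus strand: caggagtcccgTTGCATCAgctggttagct
Yars, chr4:129189895-129189924, plus strand: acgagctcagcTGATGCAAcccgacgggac

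The letters lay in reverse orientation in Aars, Gars, Iars and Tars, and forward in Yars. Counted from the RefSeq start, with negative positions upstream and no position 0, the matches shown began at 10 in Aars, -30 in Gars, 8 in Iars, -15 in Tars and 4 in Yars. Of 9 genes of the amino acid response with an entry in the table, 3 held the same letters: Asns, the asparagine synthetase, Chac1, which degrades glutathione, and Trib3, a pseudokinase.

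The NRF1 letters, GCATGCGC on either strand, were held by 0 of 13 cytosolic and 3 of 14 mitochondrial members, against 3.79% of coding promoters. NRF1 is a transcription factor best known for nuclear genes of mitochondrial function. The matches were in Rars2, Vars2 (2 matches) and Wars2. Rars2 shares its H3K4me3 promoter peak with Orc3, and Vars2 with Gtf2h4, and to which gene the letters belong was not tested. The stretches are shown with the letters or their reverse complement, GCGCATGC, in capitals.
Rars2, chr4:34614895-34614924, plus strand: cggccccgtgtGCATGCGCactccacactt
Vars2, chr17:35667620-35667649, minus strand: gagtcttttacGCATGCGCctgcgtgtccc
Vars2, chr17:35667594-35667623, minus strand: tccccgcccacGCATGCGCgcgcacctcgc
Wars2, chr3:99141015-99141044, plus strand: ccagaggacagGCGCATGCgtagtaagcac

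The upstream part of the Gars promoter is given because it held the composite, an ETS match and an SP match together. The gene encodes both the cytosolic and the mitochondrial glycyl enzyme. A further SP match after the start is not shown. The 250 bases before its RefSeq start contain, in capitals, the ETS letters (CCGGAAG, here as CTTCCGG), the composite and the SP letters (GGGCGG).
Gars, chr6:55037751-55038000, plus strand: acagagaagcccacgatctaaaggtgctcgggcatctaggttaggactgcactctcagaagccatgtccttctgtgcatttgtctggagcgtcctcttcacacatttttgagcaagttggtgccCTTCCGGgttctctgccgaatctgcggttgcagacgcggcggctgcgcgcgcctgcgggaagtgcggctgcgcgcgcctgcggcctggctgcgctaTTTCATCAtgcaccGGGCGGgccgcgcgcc

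Across the 27 promoters, ETS letters were held by 9 (12.4% of coding promoters), SP letters (GGGCGG) by 19 (48.5%) and NF-Y letters (CCAAT) by 13 (38.6%). The YY1 letters (AAGATGGC) were held by 4, Farsa, Aars2, Wars2 and Yars2 (3.28%), and E-box letters (CACGTG) by 5, Aars, Farsb, Iars, Tars and Ears2 (8.04%). TATA letters (TATAAA) were held by 3, Farsa, Aars2 and Tars2 (12.9%). All were searched on both strands, and none of the motifs contains another. The median number of CpG dinucleotides per promoter was 18 for members and 14 for all coding promoters, and the observed over expected CpG ratio was 0.73 and 0.60. A match of letters describes the sequence and is not a site shown to be bound.

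An H3K4me3 peak overlapped a promoter window of 36 of 36 members (95% Wilson interval 90.4% to 100%), against 68.4% of all protein-coding genes. The principal transcript start, that of the main GENCODE transcript, lay inside the peak in 36 of 36, against 88.4% of coding genes with a promoter peak. The peak reached farther downstream of the start than upstream in 32 of 36 members, 18 cytosolic and 14 mitochondrial, against 72.4% of coding genes with a promoter peak. The 4 exceptions were Cars, Wars, Sars2 and, by 1 bp, Aars2. The H3K4me3 list held 59927 peaks from 27328071 tags kept after redundant tags were removed. Absence of a peak in it is not absence of the mark, since the pluripotency genes Pou5f1, Sox2, Nanog and Tdgf1 had no peak at a promoter window, and only Esrrb and Zfp42 of the 6 genes checked for embryonic stem cells had one. Of 5 genes of differentiated cells (Alb, Ins2, Myh6, Cd3e and Cdh5), only Cd3e had a promoter peak.

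**Figure D1:**
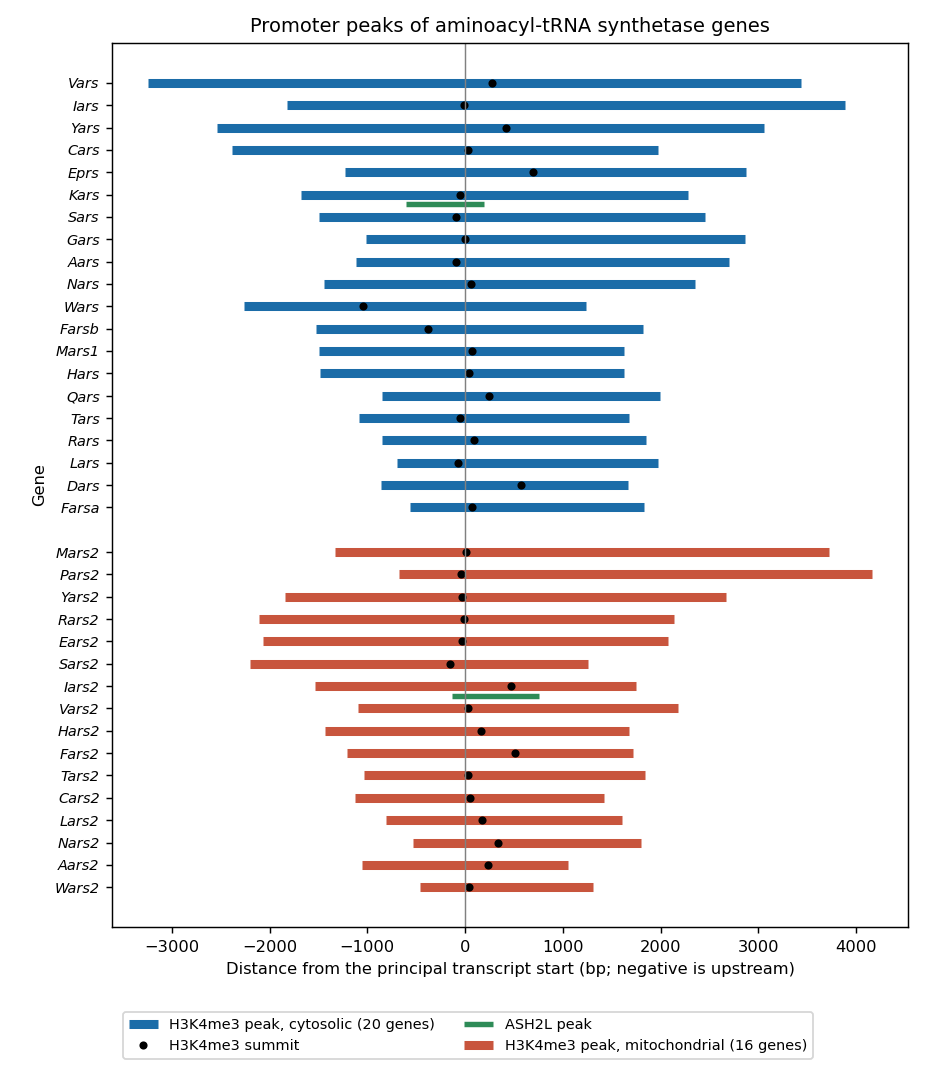
Extent of the H3K4me3 promoter peak of each synthetase gene in bp from its principal transcript start, with negative values upstream. Bars are peaks (20 cytosolic genes above, 16 mitochondrial below, ordered by length), black points are peak summits and green bars are ASH2L peaks that overlap a promoter window, which were found at Kars and Iars2. In 32 of 36 genes the bar reaches farther to the right of the start than to the left, as it does in 72.4% of coding genes with a promoter peak.

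The H3K4me3 summit lay within 100 bp of the principal start in 22 members (37.0% of coding genes with a promoter peak) and within 100 bp of some annotated start in 27 (52.3%). It was more than 500 bp from every annotated start in 2 members (14.1% of those coding genes), both cytosolic and in the multi-synthetase complex. These were Dars, the aspartyl enzyme, with its summit 575 bp downstream, and Eprs, which joins the glutamyl and prolyl activities in one protein, with its summit 551 bp from the nearest start. At Wars, the tryptophanyl enzyme, the summit was at -1047 bp from the principal start but at -70 bp from another annotated start.

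For the peak with the most tags at each gene, the median length was 3650 bp in cytosolic members (95% order-statistic interval of the median 2839 to 3961 bp, 20 genes) and 3196 bp in mitochondrial members (2422 to 4240 bp, 16 genes). The median over 15012 coding genes with a promoter peak was 2943 bp. The order of the cytosolic and mitochondrial medians turned when only peaks of higher fold enrichment were kept (2839 against 2872 bp) and when the peak of highest fold enrichment stood for each gene (3116 against 3196 bp). Tags are the reads that the peak caller counted in a peak, and their median was 642 in cytosolic members (548 to 702), 528 in mitochondrial members (418 to 757) and 469 over coding genes. The intervals of the cytosolic and mitochondrial medians overlapped for both measures. No test was made of these differences, because genes are not replicates of a condition. For each peak, the 95% interval given beside tags is an exact Poisson interval and covers counting error only.

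Because longer peaks hold more tags, the density was also taken. Its median was 179 tags per kb in cytosolic, 166 in mitochondrial members and 154 over coding genes. More members lay above the median of coding genes by density (29 of 36) and by tags (28 of 36) than by length (23 of 36). Read against the counting interval of each peak, 25 members lay wholly above the median of 469 tags and 7 wholly below it, of which 2 were cytosolic and 5 mitochondrial. Among coding genes with a promoter peak, 43.4% lay wholly above and 43.2% wholly below it.

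**Figure D2:**
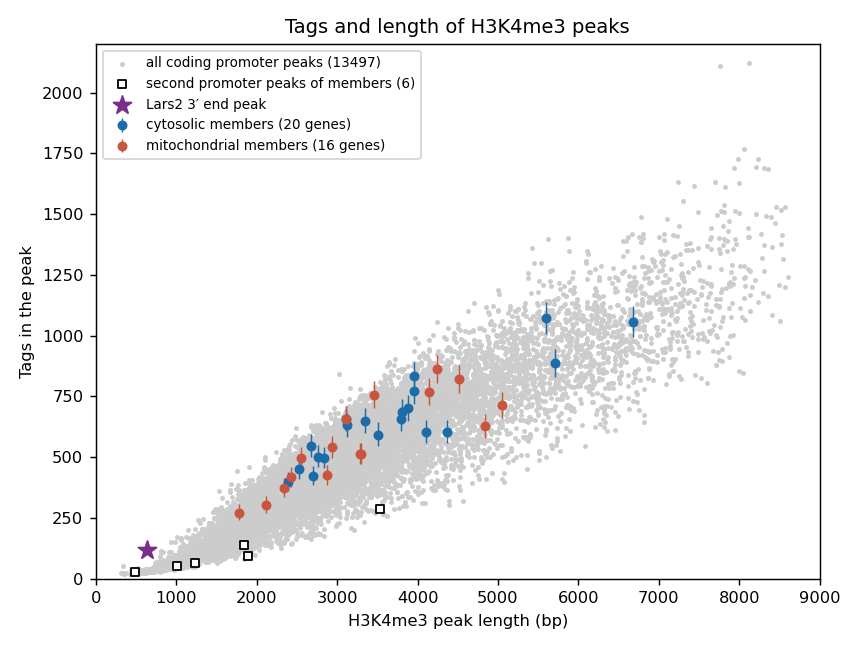
Tags in each H3K4me3 peak (linear axis) against its length in bp, for 13497 distinct promoter peaks of coding genes (grey), the members' main promoter peaks with exact Poisson 95% intervals, and the members' 6 other promoter peaks (squares). The members lie within the grey cloud from Wars2 (1777 bp, 272 tags) to Vars (6675 bp, 1058 tags), the squares lie along its lower edge, and the Lars2 3′ end peak (star, 630 bp, 117 tags) stands above it.

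The longest promoter peaks among members were those of Vars, Iars and Yars, the cytosolic valyl, isoleucyl and tyrosyl enzymes. The Vars peak was 6675 bp long with 1058 tags (995 to 1124), the Iars peak 5708 bp with 887 tags (830 to 947) and the Yars peak 5600 bp with 1072 tags (1009 to 1138). The same 3 genes had the most tags. Only these genes and Mars2, the mitochondrial methionyl enzyme (5056 bp), reached 5000 bp.

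The shortest peaks were mitochondrial. Wars2, the tryptophanyl enzyme, had 1777 bp and 272 tags (241 to 306), Aars2, the alanyl enzyme, had 2118 bp and 305 tags (272 to 341), and Nars2, the asparaginyl enzyme, had 2336 bp and 373 tags (336 to 413). The shortest cytosolic peak was that of Farsa, the catalytic subunit of the phenylalanyl enzyme, with 2389 bp and 399 tags (361 to 440). The peak of Farsb, the other subunit of the same enzyme, had 3342 bp and 650 tags (601 to 702), so that the counting intervals of the subunits do not overlap.

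Density ordered the genes differently. The highest value was at Sars2, the mitochondrial seryl enzyme, with 219 tags per kb in a peak of 3461 bp that it shares with Mrps12. The lowest was at Pars2, the mitochondrial prolyl enzyme, with 130 tags per kb in a peak of 4834 bp that reached 4161 bp downstream of the start. Length and density were nearly unrelated over the 35 distinct member peaks (Spearman rho -0.03), while over all coding promoter peaks rho was 0.44. The points share 1 peak list.

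The 8 members of the multi-synthetase complex (Dars, Eprs, Iars, Kars, Lars, Mars1, Qars and Rars) had a median length of 2978 bp (2528 to 5708) and 576 tags (424 to 887). The 12 free cytosolic members (Aars, Cars, Farsa, Farsb, Gars, Hars, Nars, Sars, Tars, Vars, Wars and Yars) had 3804 bp (3115 to 4363) and 657 tags (593 to 773). With 8 genes, the interval of the complex members is their whole range, from 2528 bp at Dars to 5708 bp at Iars. Its overlap with the interval of the free members therefore cannot tell whether the medians differ.

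Cytosolic and mitochondrial enzymes for the same amino acid could be paired for 13 amino acids. Hars and Hars2, the histidyl pair, lie head to head with their principal starts 197 bp apart and share a peak of 3115 bp with 658 tags (609 to 710), so they give no comparison. In the other 12 pairs the cytosolic gene had the longer peak in 9, with a median difference of 1274 bp, and more tags in 10, with a median difference of 190.5 tags. It had the denser peak in 8. In 5 of these 12 pairs, those of Rars2, Sars2, Vars2, Wars and Yars, a gene shares its peak with a further coding gene. In the 7 pairs without such a peak the cytosolic gene had the longer peak in 5 and more tags in 6. The valyl pair differed most in length, by 3397 bp.

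The exceptions in length were the methionyl, arginyl and threonyl pairs. Mars1 had 3118 bp against 5056 bp at Mars2, and Rars had 2701 bp against 4240 bp at Rars2. The threonyl genes were within 111 bp of each other, with 2761 bp at Tars and 2872 bp at Tars2. In tags, Rars had 424 (385 to 466) against 861 (804 to 920) at Rars2, the widest difference with the mitochondrial gene ahead. The mitochondrial gene was also ahead in the methionyl pair, with 633 (585 to 684) at Mars1 and 714 (663 to 768) at Mars2. Sars and Sars2 had 773 (719 to 829) and 757 (704 to 813), and Tars and Tars2 had 503 (460 to 549) and 426 (387 to 468). In the methionyl, seryl and threonyl pairs the intervals overlap.

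**Figure D3:**
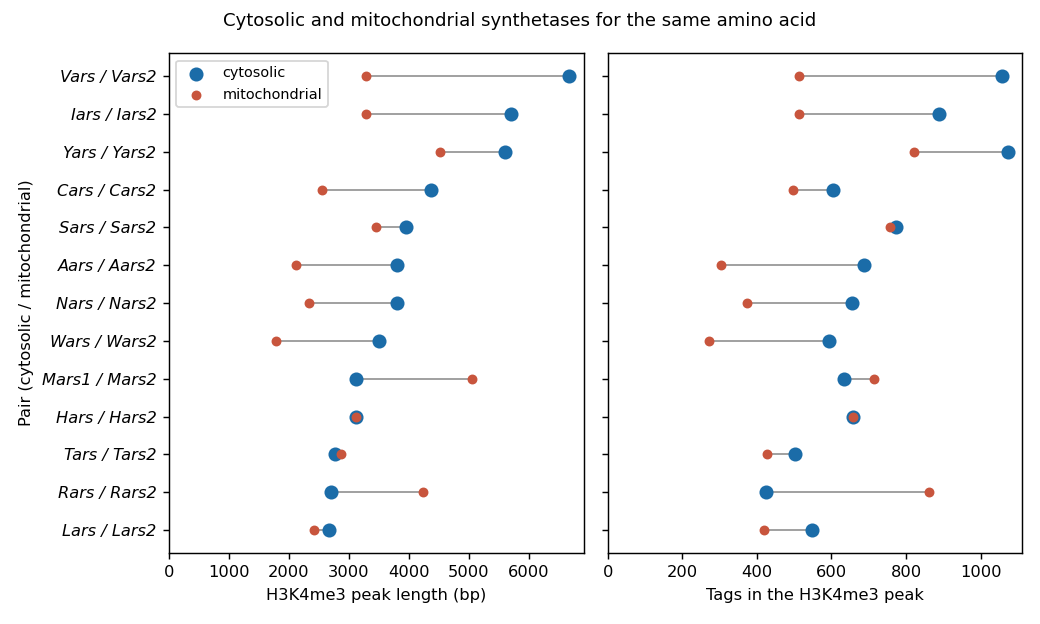
Length in bp (left) and tags (right) of the H3K4me3 promoter peaks of 13 cytosolic and mitochondrial genes for the same amino acid, joined by lines. The cytosolic point lies farther right in 9 of 12 pairs for length and in 10 of 12 for tags, and the points of Hars and Hars2, which share a peak, coincide.

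The peak also covered the promoter window of another protein-coding gene in 10 of 36 members (27.8%, Wilson interval 15.8% to 44.0%), against 20.5% of coding genes with a promoter peak. Besides Hars and Hars2, 6 members had a partner that starts within 1000 bp on the other strand. That makes 8 of 36 members with such a partner, against 12.9% of coding genes with a promoter peak. Rars2 and Orc3, a subunit of the origin recognition complex, start 13 bp apart. Kars and Terf2ip, which binds telomeres, start 75 bp apart, and Ears2 and Ubfd1 start 88 bp apart. The distances were 114 bp for Fars2 and Lyrm4, 182 bp for Sars2 and Mrps12, a protein of the mitochondrial ribosome, and 218 bp for Yars and S100pbp. Vars2 shared its peak with Gtf2h4, a subunit of TFIIH, and Wars with Wdr25, without such a head-to-head start.

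At these genes the mark cannot be assigned to either partner. Their lengths and tags were 4240 bp and 861 tags (804 to 920) at Rars2, 3961 bp and 833 tags (777 to 892) at Kars, 4147 bp and 768 tags (715 to 824) at Ears2, and 2932 bp and 541 tags (496 to 589) at Fars2. The peak of Vars2 had 3278 bp and 514 tags (471 to 560), and that of Wars 3503 bp and 593 tags (546 to 643). Members that share a peak had a median of 3482 bp and 708 tags against 3205 bp and 576 tags in the 26 that do not. Over coding genes the same medians were 3572 bp and 644 tags against 2759 bp and 428 tags. The median density was 197 tags per kb in members that share a peak against 170 in the others, and 174 against 149 over coding genes.

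An ASH2L peak overlapped a promoter window of 2 of 36 members (5.56%, Wilson interval 1.54% to 18.1%), against 7.67% of all coding genes and 10.9% of coding genes with an H3K4me3 promoter peak. The interval holds both background shares, but it rests on 2 members and is too wide to show whether the share differs from either. The members were Kars, the lysyl enzyme, and Iars2, the mitochondrial isoleucyl enzyme. The ASH2L list held 2464 peaks from 25677963 tags kept. A member without a peak in this list may still carry ASH2L below the threshold of the peak caller.

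The Kars ASH2L peak (chr8:112011129-112011929) was 801 bp long with 35 tags (24.4 to 48.7), a fold enrichment over the local background of 4.93 and a score of 54.88, close to the lowest score the list admits, 50. It lay wholly inside the H3K4me3 peak and also covered the promoter window of Terf2ip. The Iars2 ASH2L peak (chr1:185328644-185329529) was 886 bp long with 40 tags (28.6 to 54.5), a fold enrichment of 5.39 and a score of 101.70, and it also overlapped a promoter window of the annotated gene Gm37785. Its summit lay 548 bp downstream of the principal start, and the H3K4me3 summit of Iars2 lay 465 bp downstream. That H3K4me3 peak had 3292 bp and 514 tags (471 to 560), and its score of 293.30 was below the coding median of 619.0. The same ASH2L peak was the nearest to the start of Eprs, at 33515 bp.

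The bases at the starts of the genes with an ASH2L peak are given, with SP letters (as CCGCCC) and, at Kars, ETS letters in capitals. Both stretches lie inside the ASH2L peaks but not at the summits, which were 548 bp downstream of the principal start at Iars2 and at -144 bp at Kars. SP letters stood in 48.5% and ETS letters in 12.4% of all coding promoters, and a link of these letters with ASH2L was not tested.
Iars2, chr1:185329402-185329431, minus strand: ccCCGCCCttgctcttgccCCGCCCcttcc
Kars, chr8:112011350-112011379, minus strand: cgagggcCCGCCCtctttcCCGGAAGaggc

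The share of coding genes with an ASH2L promoter peak varied with the length of their H3K4me3 peak, from 4.30% below 2000 bp to 9.80% from 2000 to 3000 bp and 15.0% from 3000 to 4000 bp. Both members with an ASH2L peak fell in the last of these ranges, which held 13 members. None of the 4 members of 5000 bp or more had one, in a range where 12.7% of coding genes did. Within 10000 bp of the principal start, an ASH2L peak lay near 3 members, with Cars2 (4241 bp) besides Kars and Iars2. The share among coding genes with an H3K4me3 promoter peak was 12.9%.

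More than 1 H3K4me3 peak overlapped promoter windows in 6 members (16.7%, Wilson interval 7.87% to 31.9%), against 17.4% of coding genes with a promoter peak. These were Iars, Vars, Yars, Aars2, Tars2 and Vars2. The added peaks overlapped windows of other annotated transcripts and had 26 to 287 tags and 49.8 to 81.2 tags per kb, below the density of every main peak. In Iars, Vars, Yars and Aars2 the added peak held an annotated start of the gene. The peak at Vars2 held none and lay 44 bp from the nearest start. The largest, at Tars2, was 3535 bp long with 287 tags (255 to 322) but held no start, since it met only the outer end of the window of the transcript Tars2-210, with its edge 880 bp and its summit 1805 bp from the nearest start. The peak of Vars-212 also overlapped a promoter window of Vwa7.

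Away from their promoter windows, 13 of 36 members overlapped 30 further H3K4me3 peaks, against 49.1% of coding genes with a promoter peak that had any. The median gene length was 25324 bp in members and 24798 bp in those coding genes. Of these, 4 lay at the promoter windows of other genes, Exosc6 at the end of Aars, Gm30177 at Fars2, Dnd1 at Hars and Qrich1 at Qars, with a median of 146 tags per kb. The other 26 lay at no promoter window, with a median of 63.0 tags per kb. Fars2, the longest member at 608869 bp, overlapped 8 peaks in all. The peak with the most tags away from any promoter window was within Sars, the cytosolic seryl enzyme, with 405 tags over 2544 bp.

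Near the 3′ end of Lars2, which encodes the mitochondrial leucyl enzyme, lay an H3K4me3 peak at chr9:123461789-123462418. It held 117 tags (96.8 to 140) in 630 bp, which is 186 tags per kb against 173 at the Lars2 promoter, where the peak had 2422 bp and 418 tags (379 to 460). Its fold enrichment of 30.22 ranked 1 among 59927 peaks of the list, and the next highest among member peaks off promoters was 15.59, in Fars2. Among 4018 H3K4me3 peaks of 550 to 700 bp, the median density was 44.6 tags per kb and this peak ranked 2. It lay in exon 21, the last, within the 3′ untranslated region, from 111 bp after the stop codon to 248 bp before the end of the gene, 94862 bp from the gene start.

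An ASH2L peak of 589 bp at chr9:123461823-123462411 lay wholly within it, with 64 tags (49.3 to 81.7), 109 tags per kb and a fold enrichment of 16.56, rank 12 of 2464. At the Lars2 promoter there was no ASH2L peak. Repeats soft-masked in the genome covered 4.13% of the H3K4me3 peak, against a median of 17.6% over the members' promoter peaks. Its sequence nevertheless had 11 matches elsewhere of at least 100 bases and 90% identity, on 9 chromosomes, which together cover 63.2% of it. Only matches on assembled chromosomes were counted. None was on the mitochondrial chromosome.

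Of the 11 matching places, 5 overlapped an H3K4me3 peak and 1 overlapped both an H3K4me3 and an ASH2L peak. The last, chr12:78350930-78351173, matched 244 bases at 97.5% identity, and its peaks had 37 tags with a fold enrichment of 13.31 for H3K4me3 and 25 tags with 6.74 for ASH2L. At the other places with an H3K4me3 peak, that peak had 607 bp with a fold of 6.22 (chr6), 5414 bp with 4.53 and 4061 bp with 4.44 (both chr16), and 1669 bp with 4.88 (chr7). Most of these peaks were thus far longer than the match. No share for other sequences was computed beside these counts, and the part of the matches in the Lars2 peak was not tested. The only other ASH2L peak in a member away from its promoter was in Lars, the cytosolic leucyl enzyme, with 24 tags over 580 bp.

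Fold enrichment fell with the length of a peak, with Spearman rho -0.73 over the 35 distinct member peaks and -0.72 over 13497 coding promoter peaks, from 1 peak list. Over the whole list the median fold was 6.84 below 2000 bp and 3.56 from 7000 to 9000 bp, and the longest peak was 8609 bp. Among members, Wars2 had the highest fold (12.19) with the shortest peak, and Yars (3.23) and Vars (3.41) had the lowest. Fold was therefore not used to rank the members by mark. The cytosolic gene had the higher fold in 5 of the 12 pairs, in contrast to 10 of 12 for tags.

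**Figure D4:**
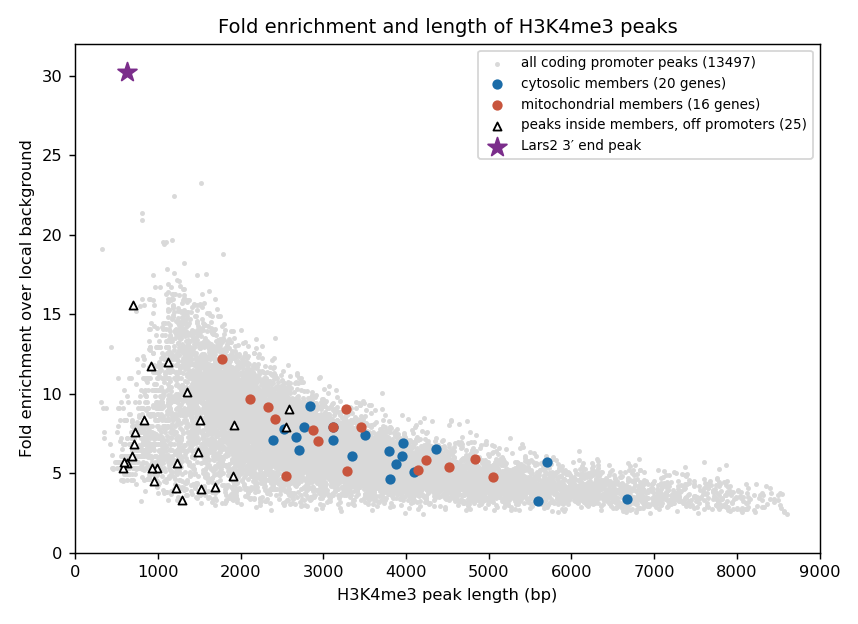
Fold enrichment over the local background against peak length in bp, both on linear axes, for 13497 promoter peaks of coding genes (grey), the members' main promoter peaks, 25 member peaks away from promoters (triangles) and the Lars2 3′ end peak (star). Members run from 12.19 at Wars2 down to 3.23 at Yars, and the star at 30.22 lies above all other points.

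Genes that work beside the synthetases were looked up by the same rule, and the shares of all coding genes beside their counts are again 68.4% for H3K4me3 and 7.67% for ASH2L. With lists this short, no share was read as different from these. All 8 scaffold and synthetase-like genes had an H3K4me3 promoter peak and 0 had an ASH2L peak, with a median of 2944 bp and 478 tags. They include the complex scaffolds Aimp1 (3400 bp), Aimp2 (3520 bp) and Eef1e1 (3948 bp). All 5 genes for mitochondrial transamidation, formylation and tRNA delivery had an H3K4me3 peak (median 2670 bp, 494 tags). An ASH2L peak was present at 1 of them, Mtfmt, which formylates the initiator methionyl-tRNA.

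Of the amino acid response list, 7 of the 9 genes matched had an H3K4me3 promoter peak and 0 had an ASH2L peak, beside 68.4% and 7.67% of all coding genes. Those without were Atf5, a transcription factor related to ATF4, and Sesn2, a leucine sensor. The 7 had a median of 4530 bp and 764 tags. Their peaks had 6752 bp at Trib3, 6226 bp at Atf4, 4743 bp at Asns and 4530 bp at Psat1. The shorter ones had 2956 bp at Eif2ak4, 2789 bp at Chac1 and 2760 bp at Phgdh, beside the coding median of 2943 bp. Of the genes of this list that hold the composite letters, Trib3 and Asns thus had long peaks and Chac1 did not. The cytosolic members holding the composite letters had 3811 bp at Aars, 3880 bp at Gars, 5708 bp at Iars, 2761 bp at Tars and 5600 bp at Yars, and no ASH2L peak at any of these 5 promoters.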

How the data were processed

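CUT&RUN libraries of E14 cells were processed by the authors with Bowtie2, SAMtools 1.5 and MACS on mm10, per the submitters' notes. The file headers name MACS 1.4.3, no control library, a p-value cutoff of 1e-05 and a local background of up to 10000 bp. Each list was called on 1 input file. The study's methods describe a merge of replicates, but the sources used here do not settle at which step it was made or whether each input file joins both duplicates. Regions that attract tags whatever the antibody therefore stay in the lists. The parental HA samples were not analysed here. The deposited tag counts are whole numbers of tags per peak in that input, not normalized. The deposited fold enrichment is a ratio of summit tags to the background modelled from the same library. The deposited score is 10 times the −log10 of the peak's p-value, and is 50 at the cutoff. The total tags were 39669806 for H3K4me3 and 26545897 for ASH2L, of which 27328071 and 25677963 were kept after redundant tags at a position were removed (redundant rates 0.31 and 0.03). The lists' tag counts are not compared with each other. The tag sizes in the headers were 142 and 151 bp.

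Peaks were joined to GENCODE vM21 promoter windows with a minimum overlap of 1 bp, and the overlap step was tested on simulated peaks. At genes with several overlapping peaks, the peak with the most tags stands for the gene. Mars1 is listed as Mars in the annotation. Ddit3 has more than 1 entry and was given no value. Shares have Wilson and tags exact Poisson 95% intervals, which cover counting error only. Medians over genes have order-statistic intervals. Motifs were searched in the RefSeq promoter table of GRCm38.p6. Members without an entry there were Cars, Hars, Hars2, Lars, Nars, Pars2, Rars, Vars and Wars. 1 sequence stretch is not reported here. Matches to the Lars2 peak were found with blastn 2.17.0. Python 3.11.15, pandas 2.3.3, scipy 1.17.1 and pysam 0.24.0 were used.

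The members and gene lists were chosen with earlier results of these data known. Named in full were members with an ASH2L peak, the 3 longest and 3 shortest, the 3 with most and fewest tags, the highest and lowest density, those sharing a peak, and Lars2. Other members, the markers and further peaks named were chosen after their values were seen. Alternatives were a wider window, coding transcripts only, a larger overlap, peaks at or above the median fold enrichment of their list, the longest peak or that with the highest fold per gene and, chosen after seeing the data, the principal start only and pairs without a shared peak. No test across samples was possible with 1 list per antibody.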

Additional observations from a re-analysis of the deposited data

How the results depend on the processing

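Under the alternatives, 52 values were computed for 8 results, and 50 of them left the count the same or the median within its 95% interval. The other 2 came from dropping peaks whose fold enrichment was below their list's median, 6.46 for H3K4me3 and 5.37 for ASH2L. Then 20 of 36 members kept an H3K4me3 promoter peak (36.4% of coding genes) and 1 member, Iars2, kept an ASH2L peak (3.73% of coding genes). Since fold falls with length, this setting removes long peaks. The order of the median lengths turned under 2 settings, to 2839 bp for cytosolic and 2872 bp for mitochondrial members with the stricter peaks, and to 3116 bp and 3196 bp with the peak of highest fold per gene. The medians of tags and of tags per kb stayed higher in cytosolic members under each alternative. No paired analysis was possible because each antibody has 1 peak list with no values per duplicate, and leaving out a replicate was not possible for the same reason. The ASH2L result rests on 35 and 40 tags, in the peaks of Kars and Iars2.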
